A study of Mus musculus with 18 samples.

Results

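A set of genes that restrain mitogen-activated protein kinase (MAPK) signalling was followed in the mouse hippocampus, namely *Dusp1*, *Dusp4*, *Dusp5*, *Dusp6*, *Spry2* and *Spry4*. They were chosen by name, with earlier results of these data known, and these 6 members were found among the 15329 genes of the table. *Dusp5* and *Spry4* were higher in mice trained in the Morris water maze than in untrained mice of the same genotype in all 4 such comparisons. *Dusp4* was higher in 3 of the 4, whereas *Dusp1* was higher only in wild-type (WT) mice after original learning by the test used, with the difference between the genotypes not passing the test across all genes. *Dusp6* and *Spry2* passed the test in none.

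The libraries came from the hippocampi of 18 C57BL/6J mice aged 8 to 10 weeks, each mouse giving 1 library, in 6 groups of 3. WT mice and *Ccny* KO mice, which were made to lack cyclin Y, were taken untrained (WT_Basal and KO_Basal), after original learning of a hidden platform (WT_OL and KO_OL), or after original learning followed by reversal learning of a moved platform (WT_RL and KO_RL). The construction of the KO allele and the interval between the last trial and dissection are not given in the sources used here. Levels are given as CPM, the reads of a gene scaled to a common library size, here with the TMM normalization of the authors. Differences are those of group means on the deposited log2(CPM + 1) scale, which understates changes of low genes.

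Extracellular growth factors and synaptic activity drive the cascade from receptor tyrosine kinases through Ras, Raf and MEK to the kinase ERK. In hippocampal neurons ERK signalling is required for lasting synaptic plasticity and for memory, and one of its outputs is the transcription of its own inhibitors. The dual-specificity phosphatases remove phosphate from both the threonine and the tyrosine that activate a MAPK. DUSP1, DUSP4 and DUSP5 act in the nucleus. DUSP1 also acts on the stress-activated kinases p38 and JNK, DUSP5 is selective for ERK, and DUSP6 acts on ERK in the cytoplasm. SPRY2 and SPRY4 belong to the Sprouty family, which dampens signalling between the receptor and ERK.

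RefSeq promoter windows (GRCm38.p6, 250 bases before to 50 bases after the start) were found for 4 of the 6 members, *Dusp1*, *Dusp5*, *Dusp6* and *Spry2*. The windows of *Dusp1* and *Dusp5* are shown because these were the members with the largest rises in WT mice after original learning and because they hold different motifs of activity-regulated promoters. Bases 250 to 51 before the start are printed from 5′ to 3′ on the strand of the gene. They lie at chr17:26508523-26508722 (minus strand) for *Dusp1* and at chr19:53528895-53529094 (plus strand) for *Dusp5*. Capitals mark the cAMP response element (CRE), read as TGACGTC or GACGTCA, and the CArG box that binds serum response factor, searched on both strands.
Dusp1: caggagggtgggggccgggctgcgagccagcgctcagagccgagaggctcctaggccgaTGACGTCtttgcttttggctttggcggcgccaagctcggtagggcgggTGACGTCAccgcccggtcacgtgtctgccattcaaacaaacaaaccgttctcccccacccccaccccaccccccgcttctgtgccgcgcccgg
Dusp5: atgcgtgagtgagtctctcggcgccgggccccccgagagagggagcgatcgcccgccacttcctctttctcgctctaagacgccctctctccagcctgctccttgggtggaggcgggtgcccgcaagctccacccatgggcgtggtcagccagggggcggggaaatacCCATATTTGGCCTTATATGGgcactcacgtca
The *Dusp1* window held 1 full CRE (TGACGTCA) that began 143 bases before the start and a further TGACGTC that began 191 bases before it. The full CRE was present in 1.79% of all 32851 windows in the table and the TGACGTC letters on either strand in 3.21%. The *Dusp5* window held 2 adjoining CArG boxes, CCATATTTGG and CCTTATATGG, that began 82 and 72 bases before the start. At least 1 CArG box was present in 1.63% of windows, and 2 or more were present in 0.0183%. *Dusp1* had no CArG box in its window and *Dusp5* had no full CRE, and the windows of *Dusp6* and *Spry2* held neither motif. A match describes letters and does not show binding.

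On GRCm38, the members lie on 6 chromosomes. *Dusp1* spans chr17:26505590-26562128 on the minus strand, *Dusp4* chr8:34807297-34819894 on the plus strand and *Dusp5* chr19:53529109-53542431 on the plus strand. *Dusp6* spans chr10:99263231-99267489 on the plus strand, *Spry2* chr14:105891947-105896819 on the minus strand, and *Spry4* chr18:38586247-38601415 on the minus strand, on the same chromosome as *Ccny*. These spans are those of the GENCODE gene models. The printed *Dusp1* window lies inside the *Dusp1* span, so the RefSeq start used for the window is not the 5′ end of that span. In the GENCODE models, exons of *Dusp1* overlap those of *Ergic1* on the other strand, and exons of *Dusp5* overlap those of AC137853.2 on the other strand. Whether the overlap with *Ergic1* holds for the RefSeq model was not tested. The strand setting used for counting is not given in the sources used here, so reads of these partners may be included in the values of *Dusp1* and *Dusp5*.

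The listed genes took 29248557 to 37915576 reads in a library. The 6 untrained libraries (29248557 to 31509208 reads) all had fewer such reads than the 12 trained libraries (31830344 to 37915576 reads). This count and training thus cannot be told apart. The output reads that the paper gives for untrained and trained libraries overlapped, whereas its mapping rates were mostly lower for untrained libraries. The part of these differences in the values was not tested. In the library with the fewest reads on listed genes 1 read corresponded to 0.0333 CPM, and the lowest value of a member, *Dusp5* in 1 KO_Basal mouse, rested on 121 reads. *Ccny* stood at 150 to 158 CPM in WT_Basal mice and at 89.6 to 95.8 CPM in KO_Basal mice, and it was lower in KO mice over the 3 training states (−0.72 ± 0.0612, SE, limma adjusted p = 3.31e-05). Transcript of *Ccny* was thus reduced in the libraries labelled KO and still present. Markers of CA1 pyramidal, dentate granule and inhibitory neurons were found in all groups. The summed level of 4 choroid plexus markers ranged from 14.8 to 7996 CPM between libraries, which is taken up beside the results in KO mice. In bulk tissue, fewer cells of a type and less RNA per cell cannot be told apart.

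Per kilobase of exon, *Dusp6* had the highest mean level over the 18 libraries, 19.2 ± 2.51 CPM per kb (SD), followed by *Spry2* at 17.2 ± 1.55 CPM per kb. These levels were at the 82.1 and 80.1 percentiles of all genes. *Dusp4* stood at 7.99 ± 1.68 CPM per kb and *Dusp1* at 5.6 ± 1.51 CPM per kb. *Dusp5* (3.52 ± 1.16 CPM per kb) and *Spry4* (3.41 ± 0.836 CPM per kb) were the lowest members, near the 42nd and 41st percentiles, and their ranges overlapped. The ratio of the highest to the lowest library was 3.29 for *Dusp5*, 2.41 for *Dusp1*, 2.27 for *Spry4*, 2 for *Dusp4*, 1.61 for *Dusp6* and 1.4 for *Spry2*.

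**Figure D1:**
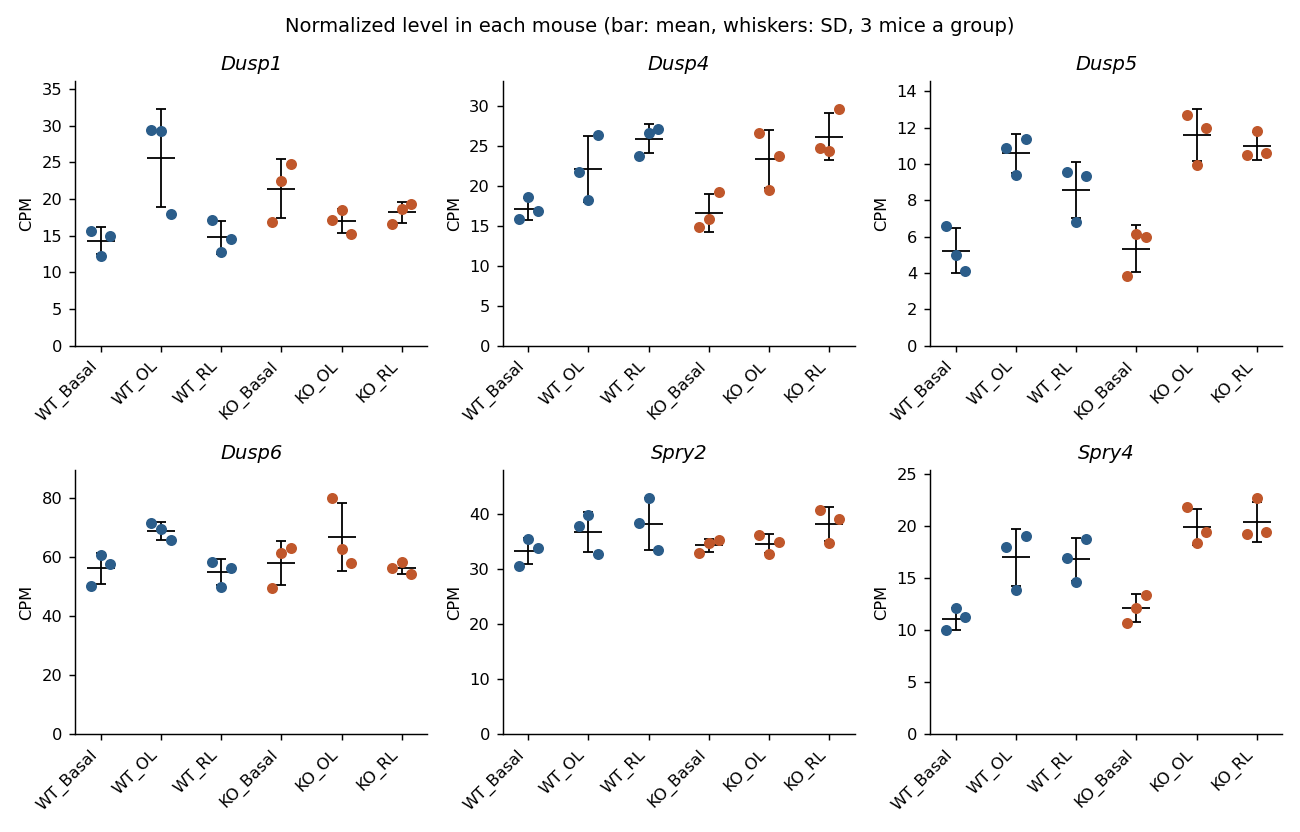
CPM of each member in every mouse, with groups along the horizontal axis, the group mean as a bar and the SD as whiskers (3 mice a group, WT blue and KO orange). The 3 untrained mice of either genotype lie below all trained mice of that genotype for *Dusp5* and *Spry4*, whereas *Dusp1* is above 29 CPM only in 2 WT_OL mice.

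*Dusp5* encodes the nuclear phosphatase selective for ERK and showed the largest rise among the members. WT_Basal mice had 6.59, 5 and 4.11 CPM, and KO_Basal mice had 3.85, 6.17 and 5.99 CPM. After original learning the values were 10.9, 9.37 and 11.4 CPM in WT mice and 12.7, 9.97 and 12 CPM in KO mice. After reversal learning they were 9.55, 6.81 and 9.36 CPM in WT mice and 10.5, 11.8 and 10.6 CPM in KO mice. Every trained mouse was above every untrained mouse of either genotype, with the smallest gap between the lowest WT_RL mouse and the highest WT_Basal mouse. The mean of WT_OL mice was 2.02 times that of WT_Basal mice (0.91 ± 0.168 on the log2 scale, SE, limma adjusted p = 0.0037), and that of KO_OL mice was 2.17 times that of KO_Basal mice (1.0 ± 0.168, adjusted p = 0.000633). WT_RL mice were 1.64 times WT_Basal mice (0.63 ± 0.168, adjusted p = 0.0201) and KO_RL mice were 2.05 times KO_Basal mice (0.94 ± 0.168, adjusted p = 0.00107). The comparisons of OL and RL within a genotype share their untrained mice, whereas those of WT and KO mice share none. The rise in WT_RL mice did not pass without WT_Basal replicate 2 (adjusted p = 0.0544) or 3 (0.102), without WT_RL replicate 1 (0.067) or 3 (0.0559), with a correction for GC content (0.0897), or with only these 6 libraries in the fit (0.0642). The rise in WT_OL mice did not pass with only the groups compared in the fit (0.91, adjusted p = 0.0539). Both rises in KO mice passed under all 16 alternatives tried for each.

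*Dusp1*, an immediate early gene whose product acts on p38, JNK and ERK in the nucleus, followed another course. WT_Basal mice had 15.7, 12.2 and 14.9 CPM, WT_OL mice 29.5, 29.3 and 17.9 CPM, and WT_RL mice 17.2, 12.8 and 14.6 CPM. All WT_OL mice were above all other WT mice, but the third of them exceeded the highest WT_RL mouse by little. The mean of WT_OL mice was 1.79 times that of WT_Basal mice (0.77 ± 0.174, limma adjusted p = 0.0113), while WT_RL and WT_Basal mice overlapped (0.05, 95% interval −0.32 to 0.42). The rise did not pass without WT_Basal replicate 2 (0.67, adjusted p = 0.0505), without WT_OL replicate 2 (0.66, adjusted p = 0.0505) or with the GC correction (0.67, adjusted p = 0.0589). It also did not pass with only the groups compared in the fit (0.77, adjusted p = 0.104). In KO mice the values were 16.9, 22.5 and 24.8 CPM untrained, 17.1, 18.5 and 15.3 CPM after original learning and 16.6, 18.7 and 19.3 CPM after reversal learning. KO groups overlapped, and neither KO_OL (−0.31 ± 0.174, adjusted p = 0.216) nor KO_RL (−0.21 ± 0.174, adjusted p = 0.403) passed against KO_Basal.

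*Dusp4* encodes a nuclear phosphatase that is itself induced by ERK signalling. Untrained WT mice had 15.9, 18.6 and 16.9 CPM and untrained KO mice 14.8, 15.9 and 19.3 CPM. The values were 21.8, 18.2 and 26.4 CPM in WT_OL mice and 26.7, 19.5 and 23.8 CPM in KO_OL mice. They were 23.8, 26.7 and 27.2 CPM in WT_RL mice and 24.7, 24.4 and 29.6 CPM in KO_RL mice. The untrained mice were below the trained mice of their genotype except that the lowest WT_OL mouse fell within the range of WT_Basal mice. *Dusp4* rose in KO_OL mice (1.4 times, 0.46 ± 0.137, limma adjusted p = 0.0227), in WT_RL mice (1.51 times, 0.57 ± 0.137, adjusted p = 0.0111) and in KO_RL mice (1.58 times, 0.63 ± 0.137, adjusted p = 0.0039). In WT_OL mice the difference of 0.34 ± 0.137 did not pass (adjusted p = 0.129). The group means ran from Basal over OL to RL in both genotypes, but OL and RL overlapped and did not differ by the test (0.23 ± 0.137 in WT mice, adjusted p = 0.4, and 0.17 ± 0.137 in KO mice, adjusted p = 1.0). The rise in KO_OL mice was lost without KO_Basal replicate 1 (adjusted p = 0.1) or 2 (0.0727), without KO_OL replicate 1 (0.11) or 3 (0.0719) and with the GC correction (0.101), and that in WT_RL mice without WT_Basal replicate 1 (0.0536) and with the GC correction (0.0593).

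*Dusp6*, the cytoplasmic ERK phosphatase, had the highest levels and moved little. WT_Basal mice had 50.2, 60.5 and 57.5 CPM, WT_OL mice 71.4, 69.6 and 65.6 CPM and WT_RL mice 58.3, 49.9 and 56.4 CPM. The 3 WT_OL mice were above all other WT mice. The difference from WT_Basal mice was 0.29 ± 0.113 (1.23 times, limma adjusted p = 0.111) and that of WT_RL from WT_OL mice −0.32 ± 0.113 (adjusted p = 0.205), and neither passed. KO mice had 49.5, 61.3 and 63 CPM untrained, 79.9, 62.6 and 58 CPM after original learning and 56.4, 58.3 and 54.1 CPM after reversal learning. These groups overlapped, with a single KO_OL mouse at the highest value of the gene, and KO_OL against KO_Basal gave 0.20 ± 0.113 (adjusted p = 0.22).

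Among the Sprouty genes, *Spry4* rose with training and *Spry2* did not pass in any comparison. *Spry4* stood at 9.99, 12.1 and 11.3 CPM in WT_Basal mice, 18, 13.9 and 19.1 CPM in WT_OL mice and 16.9, 14.6 and 18.8 CPM in WT_RL mice. It stood at 10.7, 12.1 and 13.4 CPM in KO_Basal mice, 21.8, 18.4 and 19.4 CPM in KO_OL mice and 19.2, 22.7 and 19.4 CPM in KO_RL mice. Every trained mouse was above every untrained mouse, and OL and RL mice of the same genotype overlapped. The rise was 1.53 times in WT_OL mice (0.56 ± 0.125, limma adjusted p = 0.0106), 1.51 times in WT_RL mice (0.55 ± 0.125, adjusted p = 0.00786), 1.65 times in KO_OL mice (0.68 ± 0.125, adjusted p = 0.00123) and 1.69 times in KO_RL mice (0.72 ± 0.125, adjusted p = 0.000861). The call in WT_OL mice was lost without WT_Basal replicate 1 (0.49, adjusted p = 0.0557) and with only the groups compared in the fit (0.56, adjusted p = 0.0979). The other 3 passed under all 16 alternatives tried for each.

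*Spry2* had 30.6, 35.4 and 33.9 CPM in WT_Basal mice, 37.8, 39.9 and 32.8 CPM in WT_OL mice and 38.4, 42.9 and 33.5 CPM in WT_RL mice. KO mice had 33, 34.8 and 35.2 CPM untrained, 36.2, 32.7 and 34.9 CPM after original learning and 40.7, 34.8 and 39.1 CPM after reversal learning. All groups overlapped. The differences of trained from untrained mice lay between 0.01 ± 0.0952 (KO_OL, limma adjusted p = 0.952) and 0.19 ± 0.0952 (WT_RL, adjusted p = 0.191), and the 95% interval of the latter reached 0.39.

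In counts, 3 of the 6 members rose in WT_OL mice (*Dusp1*, *Dusp5* and *Spry4*), where 3.88% of all 15329 genes tested were called higher. In KO_OL mice 3 of 6 rose (*Dusp4*, *Dusp5* and *Spry4*), against 11.2% of genes called higher. The same 3 members rose in WT_RL mice, against 8.28%, and in KO_RL mice, against 11.6%. The median difference of the 6 members was 0.45 (WT_OL), 0.33 (KO_OL), 0.37 (WT_RL) and 0.39 (KO_RL), while the median of all genes lay between −0.01 and 0.00. No member was lower in a trained group by the test. The mice did not overlap for 4 members in WT_OL (13.1% of all genes were higher without overlap), 3 in KO_OL (24.2%), 3 in WT_RL (17.6%) and 3 in KO_RL (22.7%). In WT_OL mice 0 members were called with only these 6 libraries in the fit, with the same differences for *Dusp1* (0.77), *Dusp5* (0.91) and *Spry4* (0.56), and 6 with libraries weighted by quality. An exact permutation test of 3 against 3 mice cannot give a two-sided p below 0.1, which is the value it gave for each of these 12 calls.

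Choroid plexus markers moved with training in KO mice. All 4 (*Ttr*, *Folr1*, *Kcnj13* and *Clic6*) were called higher in KO_OL and in KO_RL against KO_Basal mice, and their summed level was 30.5 to 620 CPM in KO_Basal, 2268 to 4411 CPM in KO_OL and 1244 to 4751 CPM in KO_RL mice. In WT mice none of the 4 was called, and the summed level was 796 to 4153 CPM in WT_Basal, 1755 to 3151 CPM in WT_OL and 14.8 to 7996 CPM in WT_RL mice, with 792 CPM in the middle WT_RL mouse. Single markers of other cell types were called in the same comparisons. In KO_OL mice 1 marker each of CA1 pyramidal, pan-excitatory and inhibitory neurons was higher, and 1 each of dentate granule neurons, astrocytes, microglia and endothelial cells was lower. In WT_OL mice 2 microglial markers were higher and 1 lower, and 1 marker each of astrocytes and endothelial cells was higher. A single KO_Basal mouse stood out in markers of other tissue. The summed level of 6 hypothalamus and thalamus markers was 17.3, 19.1 and 117 CPM in the KO_Basal mice, and at most 40.6 CPM (WT_RL) in the other groups. None of these 6 markers was called in KO_Basal against WT_Basal mice. In KO_Basal against WT_Basal mice the 4 choroid plexus markers had a median difference of −2.61, with none called. The part of these cell types and tissues in the values of the members was not tested, neither for training nor for genotype.

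**Figure D2:**
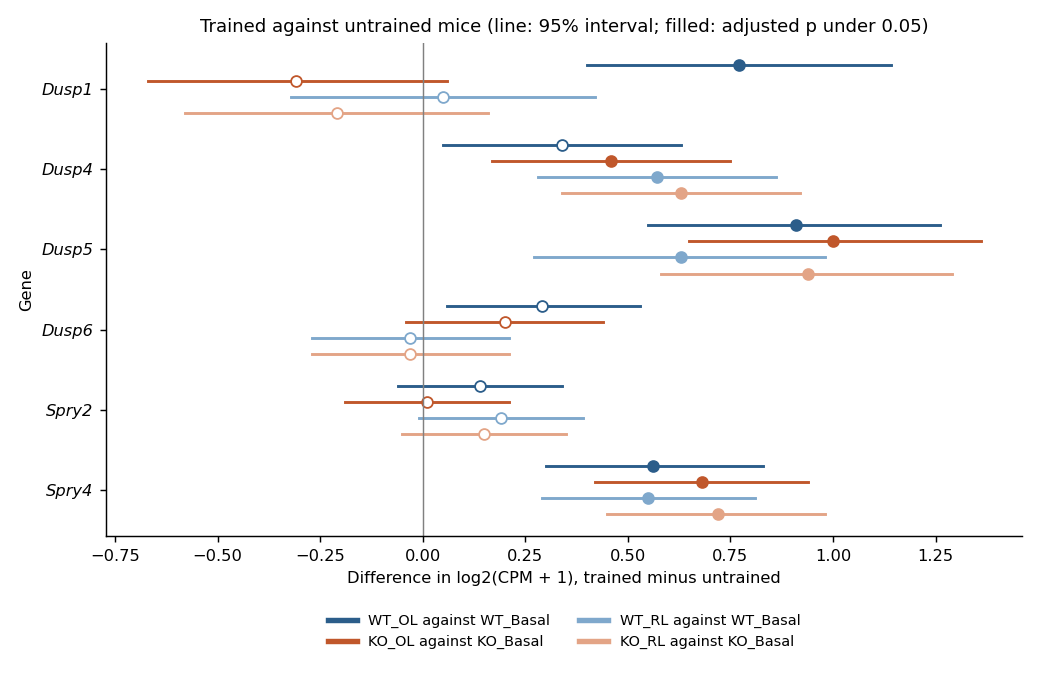
Difference in log2(CPM + 1) between trained and untrained mice for each member (horizontal axis), with the 95% interval as a line and filled points for limma adjusted p under 0.05. *Dusp5* and *Spry4* are filled in all 4 comparisons, *Dusp4* in 3, *Dusp1* in WT_OL mice only, and *Dusp6* and *Spry2* in none.

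The comparison of reversal with original learning asked whether the members changed further once the platform was moved. None of the 6 was called in WT_RL against WT_OL mice by limma, with 2 at an unadjusted p under 0.05, while 0.261% of all genes were called and 16.4% had an unadjusted p under 0.05. The 2 were *Dusp1* (0.58 times, −0.72 ± 0.174, adjusted p = 0.0978) and *Dusp6*, and they were also the members whose mice did not overlap, all WT_RL mice being lower, as in 5.34% of genes. Without WT_OL replicate 3, *Dusp1* passed (−0.95, adjusted p = 0.00503). This was the 1 of 6 fits with a library left out that passed, and the adjusted p reached 0.403 in the others. In KO_RL against KO_OL mice none was called and none had an unadjusted p under 0.05, with 0.0196% of genes called and 4.81% at an unadjusted p under 0.05. *Dusp1* there differed by 0.10 (95% interval −0.27 to 0.46), *Dusp5* by −0.07 (−0.42 to 0.29) and *Spry4* by 0.04 (−0.23 to 0.30).

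The comparison of *Ccny* KO with WT mice asked whether the loss of cyclin Y altered the members at a given training state or altered their response. No member was called in any of the 6 genotype comparisons by limma, and 1 member in each had an unadjusted p under 0.05. Between untrained mice *Dusp1* was 1.5 times higher in KO mice (21.4 ± 4.02 against 14.3 ± 1.82 CPM, SD, n = 3 mice each), and the mice did not overlap. That difference of 0.54 ± 0.174 had an unadjusted p of 0.00633 in the limma fit and an adjusted p of 0.994, in a comparison where 0.0196% of genes were called, 4% had an unadjusted p under 0.05 and 7.05% were higher without overlap. After original learning the order was reversed, with KO_OL mice at 0.664 times WT_OL mice (−0.53 ± 0.174, adjusted p = 0.18, where 0.0652% of genes were called and 18% had an unadjusted p under 0.05), and a KO_OL mouse overlapped the lowest WT_OL mouse.

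The change of *Dusp1* from Basal to OL accordingly differed between the genotypes by −1.08 ± 0.246 (95% interval −1.60 to −0.56), with an unadjusted p of 0.000442 in the limma fit and an adjusted p of 0.368. The change from OL to RL differed by 0.82 ± 0.246 (unadjusted p = 0.0042, limma adjusted p = 0.493). None of the 15329 genes (0%) was called in either difference, while 12.4% and 7.98% had an unadjusted p under 0.05. These values varied with the library left out. WT_OL replicate 3 had 17.9 CPM, near the untrained mice, and without it the first difference was −1.31 (adjusted p = 0.0295) and KO_OL against WT_OL was −0.76 (adjusted p = 0.0103). It was the only omission under which either passed. Over 12 fits with 1 library left out, the adjusted p of the first difference reached 0.751, with 1 under 0.05. For KO_OL against WT_OL it reached 0.636 over 6 such fits, with 1 under 0.05.

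In KO_RL against WT_RL mice *Dusp5* (1.28 times, 0.33 ± 0.168) and *Spry4* (1.22 times, 0.27 ± 0.125) were higher without overlap, both at a limma adjusted p of 0.986, where 0% of genes were called, 4.93% had an unadjusted p under 0.05 and 3.99% were higher without overlap. Averaged over the 3 training states, *Spry4* was higher in KO mice by 0.20 ± 0.072 (unadjusted p = 0.0133, limma adjusted p = 0.49), where 0.0326% of genes were called and 8.36% had an unadjusted p under 0.05. The 19 further KO against WT values of members all had 95% intervals that included 0, and these intervals lay between −0.34 and 0.65. The 10 further differences in a change had intervals that included 0 and lay between −0.47 and 0.72, so that differences of this size were not excluded by the data.

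**Figure D3:**
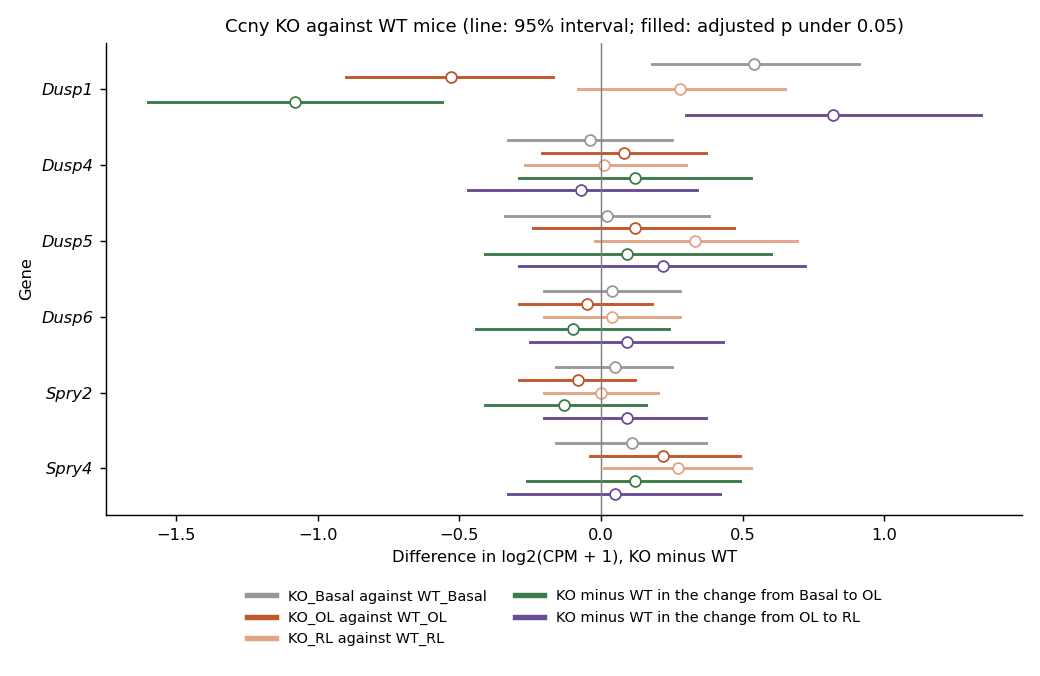
Difference in log2(CPM + 1) between KO and WT mice at each training state, and the difference between the genotypes in the change from Basal to OL and from OL to RL (horizontal axis), with 95% intervals as lines. No point is filled, since none had a limma adjusted p under 0.05, and only the intervals of *Dusp1* reach beyond −0.5 or 0.8.

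The rest of the pathway was followed with 6 lists of genes, chosen like the members with earlier results of these data known. Over all genes, 3.88% were called higher and 5.62% lower in WT_OL, 11.2% and 12.3% in KO_OL, 8.28% and 7.42% in WT_RL, and 11.6% and 12% in KO_RL mice, and each count of a list is to be read against these shares. Of 8 other dual-specificity MAPK phosphatases, 2 rose in WT_OL mice (3.88% of all genes did), *Dusp3* (0.24 ± 0.0635, limma adjusted p = 0.0255) and *Dusp7*, the cytoplasmic relative of *Dusp6* (0.31 ± 0.0875, adjusted p = 0.0349). *Dusp7*, *Dusp3* and *Dusp8* rose in KO_OL mice (0.51, 0.26 and 0.28, with 11.2% of all genes higher), and *Dusp9*, at 0.346 CPM against 0.874 CPM, fell. *Dusp7* rose also in WT_RL mice (0.33) and, with *Dusp3* and *Dusp8*, in KO_RL mice. Of 7 listed genes of the Sprouty and Spred family and of feedback at the receptor, none passed in WT_OL mice. *Spred2*, an inhibitor of Raf activation (0.49 ± 0.0977), and *Errfi1*, an inhibitor of the epidermal growth factor receptor (0.52 ± 0.123), rose in KO_OL mice (limma adjusted p = 0.00205 and 0.00658) and in KO_RL mice, and *Lrig1* rose in WT_RL mice (0.42). The medians of both lists in WT_OL mice, 0.10 and 0.08, were below that of the 6 members.

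Of 25 genes from the receptor to ERK, 3 rose and 2 fell in WT_OL mice, 6 rose and 2 fell in KO_OL mice, 6 rose and 2 fell in WT_RL mice, and 8 rose and 2 fell in KO_RL mice. The share of all genes that fell was 5.62% in WT_OL and 12.3% in KO_OL mice, so the falls in this list were near or below those of all genes. *Map2k2*, which encodes the kinase MEK2 that activates ERK, rose in all 4, from 47.5 to 64.3 CPM in WT_OL mice (0.42 ± 0.0925, limma adjusted p = 0.0095) and from 46.8 to 63.4 CPM in KO_OL mice (0.43, adjusted p = 0.00381). The fibroblast growth factor receptor gene *Fgfr1* rose in KO_OL (0.47), WT_RL (0.42) and KO_RL mice (0.58). Of 10 listed genes of the JNK and p38 cascades, only *Mapk14*, encoding p38 alpha, passed, in KO_OL mice (0.26 ± 0.088, adjusted p = 0.0431), where 11.2% of all genes were called higher.

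Of 12 effectors of ERK, 2 rose and 2 fell in WT_OL mice (3.88% and 5.62% of all genes) and 4 rose and 1 fell in KO_OL mice (11.2% and 12.3%). *Elk4*, a partner of serum response factor at CArG boxes, rose from 7.18 to 12 CPM in WT_OL mice (0.67 ± 0.115, limma adjusted p = 0.00258) and from 6.06 to 11.1 CPM in KO_OL mice (0.78, adjusted p = 0.000265). *Srf*, encoding serum response factor itself, was called higher in KO_OL (0.32) and KO_RL mice (0.31). *Mknk2*, a kinase activated by ERK, rose in all 4 comparisons of trained with untrained mice, by 0.35 to 0.49.

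The last list held 17 immediate early and ETS genes taken as responsive to ERK signalling, whose activity was not measured. None of these genes fell in trained against untrained mice. The number that rose was 10 for WT_OL (3.88% of all genes), 7 for KO_OL (11.2%), 5 for WT_RL (8.28%) and 6 for KO_RL mice (11.6%). Its median difference was 0.81 in WT_OL and 0.36 in KO_OL mice. *Fos* rose by 1.97 ± 0.219 (limma adjusted p = 0.000143) and *Egr4* by 1.26 ± 0.123 (adjusted p = 9.1e-05) in WT_OL mice, and *Egr4* by 1.29 ± 0.123 (adjusted p = 1.22e-05) in KO_OL mice. Mean *Fos* was 6.58 CPM in WT_Basal and 29 CPM in WT_OL mice. It was 16.1 CPM in KO_Basal and 20.8 CPM in KO_OL mice, which overlapped. The list had a median difference of 0.26 in KO_Basal and −0.17 in KO_OL mice against WT mice of the same state. The change from Basal to OL differed between genotypes by a median of −0.21, and that from OL to RL by 0.35. No gene of the list was called in any of these genotype comparisons. *Etv5*, an ETS factor known as a target of fibroblast growth factor signalling, rose in KO_OL (0.36), WT_RL (0.35) and KO_RL mice (0.60). *Egr2* was the 1 gene of the list that fell in WT_RL against WT_OL mice (−1.26 ± 0.23, adjusted p = 0.0351).

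**Figure D4:**
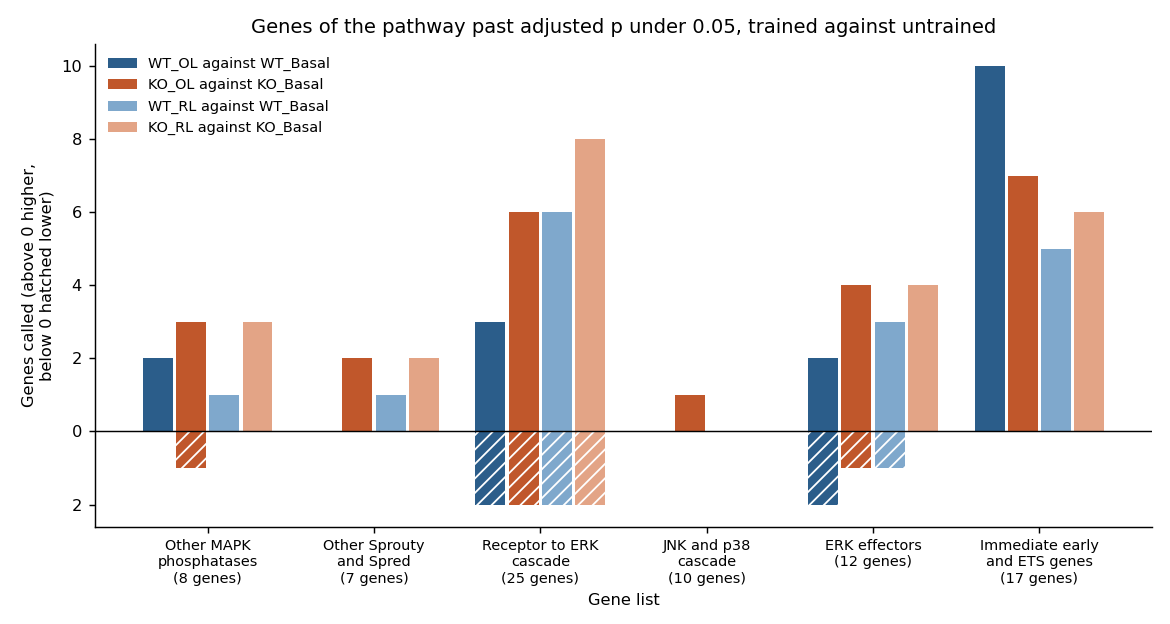
Number of genes of each pathway list called higher (above 0) and lower (hatched, below 0) in trained against untrained mice, at a limma adjusted p under 0.05. The immediate early and ETS genes have 10, 7, 5 and 6 higher and none lower, and the receptor to ERK cascade is the list with 2 lower in each comparison.

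The members also differed in the genes whose values ran most closely with theirs over the 18 libraries, where training and the reads on listed genes vary together. For *Dusp1* the 3 genes of highest Pearson r were *Ier2* (0.860), *Eme2* (0.825) and *Cyr61* (0.822), and for *Dusp6* they were *Nr4a1* (0.844), *Junb* (0.822) and *Sun1* (0.798). *Ier2*, *Cyr61*, *Nr4a1* and *Junb* are immediate early genes. With the group means removed, r was 0.651 for *Ier2* with *Dusp1* and 0.828 for *Nr4a1* with *Dusp6*.

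The genes closest to *Dusp4*, *Dusp5* and *Spry4* were of other kinds. They were *Inpp5j* (0.959), *Dnajb5* (0.941) and *Ptchd2* (0.935) for *Dusp4*, *Dhx37* (0.931), *Capn15* (0.931) and *Bcl9l* (0.927) for *Dusp5*, and *Zfp592* (0.974), *Sarm1* (0.951) and *Rusc2* (0.947) for *Spry4*. With the group means removed, r of the first gene was 0.878 for *Dusp4*, 0.655 for *Dusp5* and 0.850 for *Spry4*. *Spry2* ran most closely with *Zfp64* (0.862), *Mt2* (0.848) and *Cntfr* (0.843).

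Among the members themselves, *Dusp5* and *Spry4* had the highest r (0.91, and 0.53 with the group means removed), followed by *Dusp4* and *Spry4* (0.85 and 0.64) and by *Dusp4* and *Dusp5* (0.74 and 0.32). *Dusp1* ran with *Dusp6* (0.53 and 0.40) and had r between −0.17 and 0.25 with the other 4. *Spry2* had r between 0.08 and 0.46 with the other members.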

How the data were processed

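The report covers hippocampal RNA-seq of 18 mice, grouped by the genotype and training in the sample labels. The authors aligned reads to mm10 with STAR 2.5.1, counted them with its count module, normalized counts by TMM in edgeR 3.12.1 (R 3.3.0) and deposited log2 values for 15329 genes. The methods describe CPM floored at 1, but the values are log2(CPM + 1), since 100% of them are whole multiples of 1 read per library within a tolerance of 0.1 reads. Groups were tested by limma 3.58.1 (R 4.3.3), with 1 mean per group over 18 libraries, a variance trend and 12 residual degrees of freedom. All genes were above 0 in at least 3 libraries, and p-values were two-sided and adjusted by Benjamini-Hochberg over 15329 genes, with calls under 0.05. The fit was tested on simulated data. The sources used here do not say whether the mice of a group differ in litter or cohort. The p-values rest on the spread between mice of the same group, pooled over the 6 groups. Members, gene lists and tests were chosen with earlier results of these data known. The named genes are the 6 members, up to 6 called genes per list with the lowest adjusted p, the 3 genes of highest r with each member (mean CPM of at least 1), *Ccny* and the choroid plexus markers. One called gene of the lists is not reported here. Positions come from GENCODE M21. Python 3.11.15, pandas 2.3.3, numpy 2.4.6, scipy 1.17.1, matplotlib 3.10.9 and statmod 1.5.0 were also used.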

Additional observations from a re-analysis of the deposited data

How the results depend on the processing

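The 12 calls of members kept their direction in all 192 alternative values and stayed past the threshold in 172 of them. Counts of members called stayed within 1.5 times the reported count in 205 of 215 alternative values. With libraries weighted by quality, 6 members were called in WT_OL against WT_Basal mice in place of 3, and 1 in place of 0 (*Dusp1*) in WT_RL against WT_OL, in KO_OL against WT_OL and in each difference between genotypes in a change. These weights were 7.03, 0.208 and 0.381 for the 3 WT_OL libraries. With only the 6 libraries compared in the fit, 0 were called in WT_OL against WT_Basal mice, where the calls over all genes dropped from 1457 to 74. With GC correction 1 was called in WT_RL against WT_Basal mice, and the calls over all genes were 371 in place of 1457 in WT_OL, 2387 in place of 3600 in KO_OL and 1191 in place of 2407 in WT_RL mice. The causes were not tested. Leaving out 1 library gave 0 to 1 members called in WT_RL against WT_OL, in KO_OL against WT_OL and in the difference in the change from Basal to OL, each time 1 without WT_OL replicate 3. The replicate number was not used to pair the mice in the reported fit. In deviations from group means, same-numbered libraries correlated between −0.6 and 0.514 and differently numbered ones between −0.515 and 0.522. Of the 18 libraries, 5 correlated best with their own number. Whether mice of the same number shared a litter or cohort was not tested. With the replicate block 3 members were called in WT_OL against WT_Basal mice as before, with 1377 genes in all, and no count of members moved by over 1.5 times. Values near 0 changed sign. *Spry2* in KO_OL against KO_Basal was −0.00058 with library weights and −0.02 to 0.05 with 1 library left out, and *Dusp1* in WT_RL against WT_Basal was −0.05 with GC correction and −0.05 to 0.15 with 1 library left out. Leaving out 1 library gave −0.03 to 0.14 for *Spry2* and −0.14 to 0.08 for *Spry4* in WT_RL against WT_OL, −0.04 to 0.10 for *Spry4* in KO_RL against KO_OL, and −0.11 to 0.04 in WT_RL and −0.14 to 0.03 in KO_RL for *Dusp6* against untrained mice. Fits of the recovered reads with voom, under the authors' scaling and under median-ratio size factors, were added after seeing the data and changed no call. The planned edgeR and DESeq2 fits were not run, and the recovered reads were fitted with voom alone.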
